A study of Homo sapiens with 4 samples.

Results

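The glucose transporters and the enzymes of glycolysis were followed gene by gene in A549 cells, a human lung adenocarcinoma line, after exposure to embelin, a plant benzoquinone. The set holds 39 genes out of 30970 gene names on the array, and they were taken by name from the pathway: 6 SLC2A transporters, the hexokinases, phosphoglucose isomerase, phosphofructokinases, the PFKFB kinases that set fructose-2,6-bisphosphate, FBP1, the aldolases, TPI1, GAPDH, PGK1, the phosphoglycerate mutases, enolases, pyruvate kinases, lactate dehydrogenase subunits, pyruvate dehydrogenase kinases and 3 genes of the glycogen branch. The array carries 62 probes for them, of which 51 were kept for testing since the scanner software put them well above background throughout 1 or both groups. Of the 39 genes, 32 were tested and 7 (SLC2A10, SLC2A12, HK3, PFKFB1, FBP1, PGAM2 and PKLR) were not, since none of their probes was kept. Each of the 32 was read by a probe that was well above background on all 4 arrays, so that none entered the test through 1 group alone.

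The study asked which pathways respond at an early time of embelin-induced apoptosis. RNA came from 2 untreated control samples and 2 samples given 15 µM embelin, all collected at 4 h, and each sample was labelled with Cy3 and hybridized to 1 array. In both groups the medium had been changed beforehand to one with less serum, and no vehicle is named for the controls. The labels number the samples of a group but do not say that they came from separate cultures, so that the p-values measure the spread between these samples, which may be technical. In RNA from a whole culture, a change in the RNA of each cell and a change in which cells are present cannot be told apart.

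Glucose enters the cell through SLC2A (GLUT) carriers and is held there by phosphorylation by a hexokinase. Phosphofructokinase commits it to glycolysis and is activated by fructose-2,6-bisphosphate, which the PFKFB enzymes make and remove. Most steps have several isozymes with different tissue distribution and regulation, and at the end lactate dehydrogenase competes with mitochondrial oxidation for pyruvate, an oxidation that the PDK kinases restrain. In lung cancer cells, as in many tumour cells, this pathway runs at a high rate even with oxygen present, and several of its genes are known targets of the hypoxia-inducible factors and of MYC.

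All arrays lay on 1 slide, the controls at positions 4 and 1 and the embelin arrays at positions 2 and 3. The unscaled 75th percentiles were 721 and 601 for the controls and 648 and 739 for embelin (intensity units), and none of the spots was saturated. The share of probes well above background was 66.7% and 50.3% on control replicates 1 and 2, and 51.2% and 66.4% on embelin replicates 1 and 2, so that each group held 1 array of either kind. The epithelial markers KRT7, KRT8, KRT18, KRT19, EPCAM and CDH1 were well above background on all 4 arrays and none was called. Of 10 fibroblast, endothelial and leukocyte markers, 4 were tested and none was called, and CDH5, an endothelial marker, was well above background on 0 arrays. The log2 fold changes of the 4 tested markers were 1.30 for COL1A1 (limma adjusted p = 0.0547), 1.37 for PDGFRA, 1.25 for CD3E and 0.39 for CD68. On control replicate 2, PDGFRA and CD3E read 3.67 and 4.85, under its lowest signal well above background (5.85). Both were kept through the embelin group alone. The part of the 4 markers in the results was not tested.

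Embelin was accompanied by a rise of 8 of the 32 genes tested at an adjusted p under 0.05 (limma with Benjamini-Hochberg adjustment over 17650 genes), and by a fall of none. The 8 were HK2, PFKFB4, PDK1, ENO2, SLC2A3, PFKFB3, SLC2A1 and ALDOC, 1 or 2 members each of the transporters, hexokinases, PFKFB kinases, aldolases, enolases and pyruvate dehydrogenase kinases. The background was 1.25% of all genes called higher and 0.561% called lower. At an unadjusted limma p under 0.05, 1 of the genes was lower, PDK2, where 11.1% of all genes were. At least 2-fold higher with an unadjusted p under 0.05 were 10 members, and 0 were lower by as much, against 4.26% and 3.99% of all genes. In 31 members no value was missing, and both embelin arrays were above both control arrays in 20 and below them in 4, and the groups overlapped in 7. The same was found in 21.1% and 30.7% of 17298 genes. The median log2 fold change was 0.33 over the 32 genes and -0.06 over all genes tested.

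**Figure D1:**
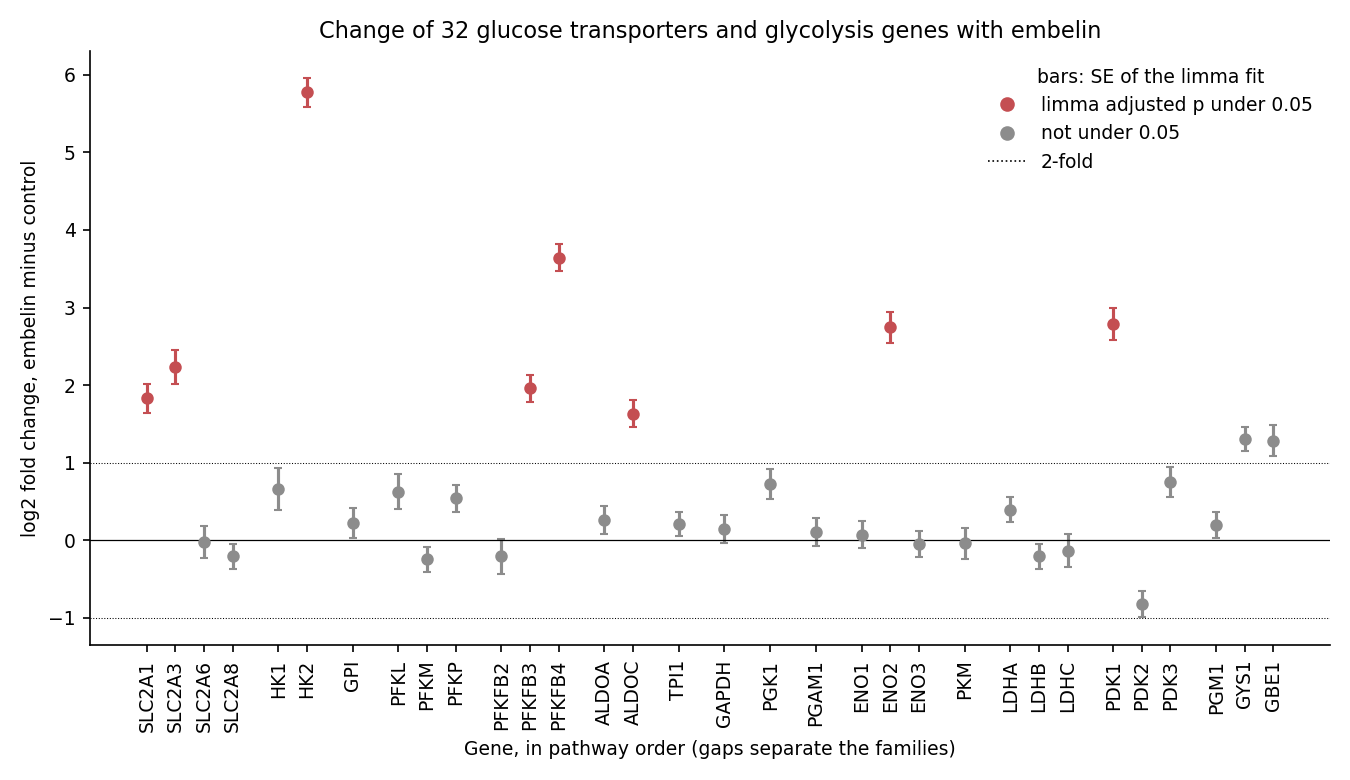
Log2 fold change (embelin minus control, y axis) of the 32 genes tested, in pathway order on the x axis, with the SE of the limma fit as bars and n = 2 arrays a group (1 control array for PFKFB2). The 8 genes called at an adjusted p under 0.05, in red, lie between 1.63 (ALDOC) and 5.77 (HK2), while most of their isozymes lie near 0.

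The calls rest on all 4 arrays together. With any 1 array left out, with the position on the slide as a covariate, or with no filter on dim probes, no gene on the array passed the adjustment, although the 10 genes at least 2-fold higher kept that size and an unadjusted limma p under 0.05 each time.

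The promoters of the called genes are shown because these genes rose together. They are the 250 bases before each start of transcription listed for the gene in RefSeq (GRCh38.p14), written in the direction of the gene, for the 6 called genes with the largest change that have an entry, and for ENO1, the enolase that was not called. SLC2A3 is not among the entries used. HK2, PDK1 and PFKFB3 each have 2 starts, and both are given, since whether the probes tell them apart was not tested. Capitals mark ACGTG and GCGTG on either strand (CACGT and CACGC on the other), the core bound by the hypoxia-inducible factors, and a run of CACGTG, the E-box that MYC and related factors bind, counts as ACGTG on both strands.
HK2 upstream start, chr2:74833877-74834126, plus strand: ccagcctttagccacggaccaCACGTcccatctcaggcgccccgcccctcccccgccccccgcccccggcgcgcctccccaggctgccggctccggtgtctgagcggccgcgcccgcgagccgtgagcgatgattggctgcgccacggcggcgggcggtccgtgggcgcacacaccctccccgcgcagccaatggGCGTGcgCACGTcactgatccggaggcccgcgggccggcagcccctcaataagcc
HK2 downstream start, chr2:74834920-74835169, plus strand: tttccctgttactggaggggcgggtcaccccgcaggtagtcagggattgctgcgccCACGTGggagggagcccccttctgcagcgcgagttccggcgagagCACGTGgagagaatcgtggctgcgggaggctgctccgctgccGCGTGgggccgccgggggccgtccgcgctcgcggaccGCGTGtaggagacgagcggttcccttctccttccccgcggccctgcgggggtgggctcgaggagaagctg
PFKFB4, chr3:48556804-48557053, minus strand: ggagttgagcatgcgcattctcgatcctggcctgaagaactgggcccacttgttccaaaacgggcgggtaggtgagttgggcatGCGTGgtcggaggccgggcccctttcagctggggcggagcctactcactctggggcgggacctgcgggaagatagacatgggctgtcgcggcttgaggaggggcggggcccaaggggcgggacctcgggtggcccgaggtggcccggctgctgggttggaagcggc
PDK1 upstream start, chr2:172555123-172555372, plus strand: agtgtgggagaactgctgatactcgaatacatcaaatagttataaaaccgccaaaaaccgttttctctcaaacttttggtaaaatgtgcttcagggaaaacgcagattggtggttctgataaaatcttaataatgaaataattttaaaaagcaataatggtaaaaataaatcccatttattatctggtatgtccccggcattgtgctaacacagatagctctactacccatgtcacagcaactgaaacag
PDK1 downstream start, chr2:172555840-172556089, plus strand: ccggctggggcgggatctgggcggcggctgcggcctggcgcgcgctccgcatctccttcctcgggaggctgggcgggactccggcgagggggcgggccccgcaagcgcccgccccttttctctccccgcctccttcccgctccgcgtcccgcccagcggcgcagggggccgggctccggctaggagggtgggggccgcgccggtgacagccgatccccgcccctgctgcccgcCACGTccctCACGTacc
ENO2, chr12:6914330-6914579, plus strand: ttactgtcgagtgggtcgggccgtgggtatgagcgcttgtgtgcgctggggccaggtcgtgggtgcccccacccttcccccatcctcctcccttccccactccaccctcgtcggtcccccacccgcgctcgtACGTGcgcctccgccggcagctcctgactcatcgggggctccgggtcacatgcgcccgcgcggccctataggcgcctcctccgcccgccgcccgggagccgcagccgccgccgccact
PFKFB3 upstream start, chr10:6144671-6144920, plus strand: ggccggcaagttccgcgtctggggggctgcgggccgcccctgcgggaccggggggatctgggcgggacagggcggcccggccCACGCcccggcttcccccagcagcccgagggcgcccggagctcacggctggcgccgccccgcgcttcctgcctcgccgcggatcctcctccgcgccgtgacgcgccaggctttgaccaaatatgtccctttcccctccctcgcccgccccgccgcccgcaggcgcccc
PFKFB3 downstream start, chr10:6202682-6202931, plus strand: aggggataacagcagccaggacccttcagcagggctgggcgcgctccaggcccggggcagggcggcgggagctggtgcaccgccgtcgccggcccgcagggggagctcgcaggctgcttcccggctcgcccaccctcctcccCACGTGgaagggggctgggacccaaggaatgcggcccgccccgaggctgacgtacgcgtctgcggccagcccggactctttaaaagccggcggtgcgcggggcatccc
SLC2A1, chr1:42958869-42959118, minus strand: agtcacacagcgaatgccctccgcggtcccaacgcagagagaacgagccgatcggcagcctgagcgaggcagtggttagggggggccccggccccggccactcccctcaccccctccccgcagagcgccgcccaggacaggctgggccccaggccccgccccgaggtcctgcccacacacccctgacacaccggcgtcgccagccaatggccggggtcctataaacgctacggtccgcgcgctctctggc
ENO1, chr1:8878687-8878936, minus strand: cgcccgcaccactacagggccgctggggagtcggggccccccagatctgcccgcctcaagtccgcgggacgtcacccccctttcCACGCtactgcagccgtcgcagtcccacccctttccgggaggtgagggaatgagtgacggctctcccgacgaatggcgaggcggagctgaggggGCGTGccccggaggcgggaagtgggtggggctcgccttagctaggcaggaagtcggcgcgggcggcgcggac

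ACGTG was found in 6 of the 10 promoters of called genes and in 18.5% of 35116 promoters of the same length, GCGTG in 5 of 10 against 32.2%, and either of them in 8 of 10 against 43.2%. CACGTG was found in 3 of 10 against 6.34%. Over all 66 promoters of the set, ACGTG was found in 23, GCGTG in 22, either in 35 and CACGTG in 8. Counted by gene, 5 of 7 called genes and 13 of 23 tested genes that were not called had ACGTG before at least 1 start, and LDHA, ALDOA, GAPDH and PGK1 were among the 13. Among the sequences printed, the downstream start of HK2 held CACGTG at 2 places, which begin at positions -194 and -149, where -1 is the last base before the start, and the downstream start of PFKFB3 held it at position -108. At the downstream start of PDK1, ACGTG lay at positions -17 and -8, and the upstream start held neither motif. Neither was found before SLC2A1, which was called, and GCGTG was found at 2 places before ENO1, which was not. The 10 promoters belong to 7 genes, and a match of letters is a description of the sequence only.

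Among the transporters, the ubiquitous carrier SLC2A1 (GLUT1) and the high-affinity carrier SLC2A3 (GLUT3) rose, and SLC2A6 and SLC2A8 were not called. SLC2A1 read 13.56 and 13.41 (log2 signal) in controls and 15.18 and 15.45 with embelin. Both embelin arrays were higher by more than the spread within either group, a 3.56-fold rise (log2 1.83 ± 0.19 SE, limma adjusted p = 0.0432). For SLC2A3 the log2 signal was 9.0 and 8.83 without and 10.94 and 11.35 with embelin, a 4.71-fold rise (log2 2.24 ± 0.22 SE, limma adjusted p = 0.0393). A second SLC2A3 probe, which only 1 control array placed well above background, gave a log2 fold change of 2.87. Both genes rose, and neither was called when the probe values of the deposited table stood in for the scanner files or when each array was left out in turn. SLC2A6, a lysosomal carrier, read 9.12 and 9.34 against 9.06 and 9.36, so that its groups overlapped. The intracellular carrier SLC2A8 was read by 3 kept probes, with log2 fold changes of -0.21, -0.36 and -0.29, none called. SLC2A10 and SLC2A12 had no kept probe.

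SLC2A14 is a near-identical copy of SLC2A3 and was not in the set, but its probe gave a log2 signal of 11.34 and 11.29 in controls and 13.77 and 13.59 with embelin. The 5.14-fold rise (log2 2.36 ± 0.17 SE, limma adjusted p = 0.026) was close in size to that of SLC2A3, and whether the probes tell the 2 transcripts apart was not tested.

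HK2, the inducible hexokinase of muscle and many tumours that binds mitochondria, had the largest change in the set. Its log2 signal was 6.61 and 6.42 in the untreated samples and 12.18 and 12.41 after embelin, a mean of 6.52 ± 0.13 against 12.29 ± 0.16 (SD, n = 2 each). The rise was 54.7-fold (log2 5.77 ± 0.19 SE, limma adjusted p = 0.0204). The other HK2 probe read 4.08 and 3.75 in controls, where it was not well above background, and 9.68 and 8.93 with embelin. The lowest signal well above background stood in for dim values under it, as is done for every bound given here. On that basis the probe rose at least 20.3-fold. It had been kept through the embelin group alone, so its p-value is not used. HK1, the constitutive hexokinase, read 11.69 and 12.23 against 12.44 and 12.79, with both embelin arrays higher but no call (log2 0.66 ± 0.27 SE, limma adjusted p = 0.3). HK3 was not tested. The within-array log2 difference HK2 minus HK1 was higher by 5.11 (SE 0.37) with embelin. The SE of each such isozyme difference comes from its own values on the 4 arrays, without the sharing of variance over genes that limma uses. It can therefore be small where 2 arrays happen to lie close, and is not comparable with the SE of the limma fit.

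GPI, which turns glucose-6-phosphate into fructose-6-phosphate, gave a log2 fold change of 0.22 without a call. At the phosphofructokinase step, none of the 3 subunit genes was called. The liver type PFKL and the platelet type PFKP were higher on both embelin arrays, with log2 fold changes of 0.63 and 0.54, and the muscle type PFKM was lower on both, at -0.25. The limma adjusted p was 0.252 for PFKL, 0.215 for PFKP and 0.472 for PFKM.

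Of the PFKFB genes, PFKFB4 and PFKFB3 rose. PFKFB4, first known from testis and induced in many tumours, read 9.37 and 9.59 in controls and 13.15 and 13.10 with embelin. The rise was 12.5-fold (log2 3.64 ± 0.18 SE, limma adjusted p = 0.0204). PFKFB3, whose product has strongly predominant kinase activity, read 13.75 and 13.56 without and 15.62 and 15.61 with embelin, 3.88-fold higher (log2 1.96 ± 0.17 SE, limma adjusted p = 0.0336). The other 3 PFKFB3 probes gave log2 fold changes of 2.13, 2.09 and 1.17, so that all 4 were higher on both embelin arrays and they disagreed in size. PFKFB2, the heart type, was read at 6.59 on control replicate 1 and at 6.31 and 6.45 with embelin. Its spot on control replicate 2 had been marked as an outlier and was left out, so that its log2 fold change of -0.21 (SE 0.23) rests on 1 control array. With the deposited values, which hold that spot, it was -1.53 (limma adjusted p = 0.461). PFKFB1, the liver type, and FBP1, the phosphatase of gluconeogenesis that opposes phosphofructokinase, were not tested. Within the arrays, PFKFB4 minus PFKFB3 was higher by 1.69 (SE 0.21) with embelin.

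**Figure D2:**
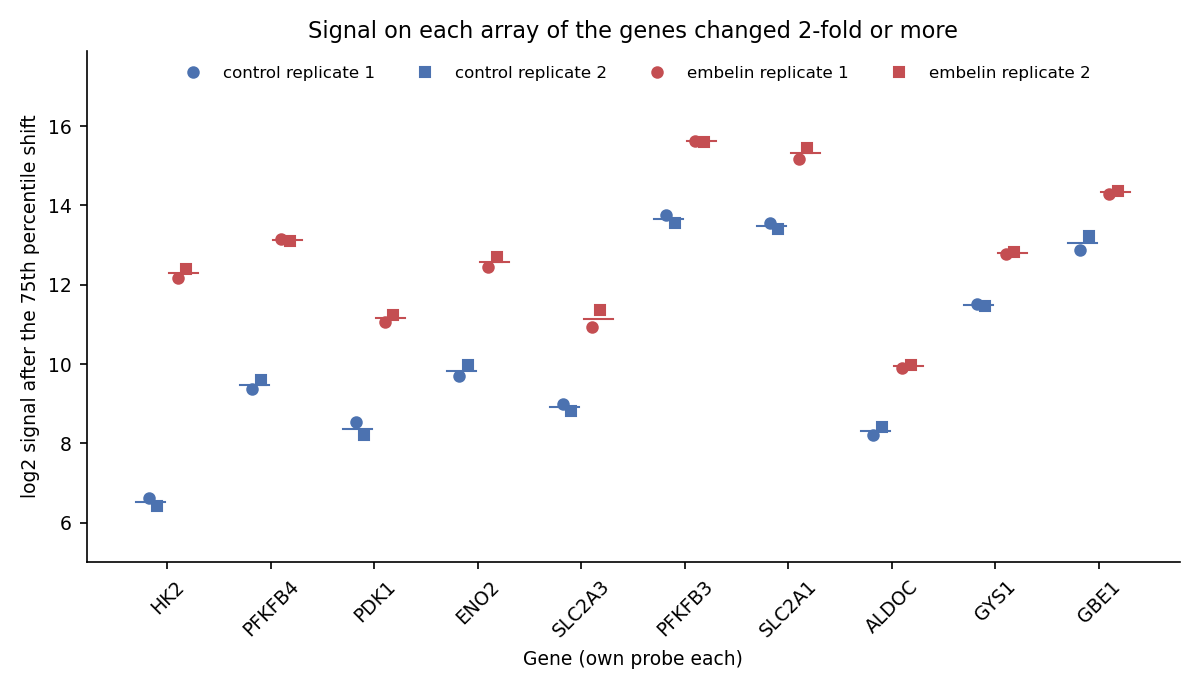
Log2 signal after the 75th percentile shift (y axis) on each of the 4 arrays for the 10 genes changed at least 2-fold (x axis), with circles and squares for replicates 1 and 2 and horizontal lines for group means. The groups do not overlap for any of the 10, and the gap is widest for HK2 (6.42 to 6.61 against 12.18 to 12.41); heights of different genes are not comparable, since each has its own probe.

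ALDOC, the brain type aldolase, rose, and ALDOA, the main aldolase of muscle and of most cultured cells, did not pass the test. ALDOC read 8.21 and 8.42 in controls and 9.91 and 9.98 with embelin, 3.1-fold higher (log2 1.63 ± 0.17 SE, limma adjusted p = 0.0452). The 2 ALDOA probes gave log2 fold changes of 0.27 and -0.35 and so disagreed in direction. ALDOC minus ALDOA, read on the brighter ALDOA probe, was higher by 1.37 (SE 0.18).

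None of the enzymes of the middle of the pathway was called. TPI1, which interconverts the triose phosphates, gave a log2 fold change of 0.21, and GAPDH, which oxidizes glyceraldehyde-3-phosphate, by 0.15 with overlapping groups. The other GAPDH probes gave -0.02 and 0.19. PGK1, the first step that yields ATP, was higher on both embelin arrays on all 4 of its probes, with log2 fold changes of 0.73, 0.98, 0.69 and 1.48, and the brightest of them was not called (limma adjusted p = 0.157). The probe with 1.48 was well above background on only 1 control array, and was kept through the embelin group alone. PGAM1, the mutase of most tissues, gave 0.11 with overlapping groups, and PGAM2, that of muscle, was not tested.

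ENO2, the enolase of neurons, rose, and its 2 isozymes did not pass the test. The log2 signal of ENO2 was 9.70 and 9.97 in controls and 12.45 and 12.71 with embelin, 6.71-fold higher (log2 2.75 ± 0.20 SE, limma adjusted p = 0.026). ENO1, the enolase of most tissues, overlapped between the groups on both of its probes (log2 0.07 and -0.06). ENO3, that of muscle, read 12.39 and 12.31 against 12.23 and 12.39. With embelin, ENO2 minus ENO1 was higher by 2.67 (SE 0.07) and ENO2 minus ENO3 by 2.79 (SE 0.18).

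PKM, the pyruvate kinase of most tissues and tumours, overlapped between the groups on both probes, with log2 fold changes of -0.04 and 0.00. Whether the probes separate its splice forms PKM1 and PKM2 was not tested. PKLR, the kinase of liver and red cells, was not tested. Of the lactate dehydrogenase subunits, LDHA was higher on both embelin arrays on its 3 probes (log2 0.39, 0.16 and 0.56) and LDHB lower on both (log2 -0.21), and neither was called, with a limma adjusted p of 0.297 and 0.535. LDHC, the testis subunit, overlapped at -0.13. The difference LDHA minus LDHB was higher by 0.60 (SE 0.04) with embelin.

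PDK1 rose, and its 2 isozymes tested did not pass the adjustment. It is a kinase that phosphorylates and inhibits the pyruvate dehydrogenase complex, and it read 8.54 and 8.21 in controls and 11.07 and 11.25 with embelin. The rise was 6.89-fold (log2 2.78 ± 0.21 SE, limma adjusted p = 0.026). On a second PDK1 probe, which only 1 control array placed well above background, the log2 fold change was 3.03. That probe was kept through the embelin group alone. PDK3 read 8.54 and 8.71 against 9.24 and 9.52, higher on both embelin arrays (log2 0.75 ± 0.19 SE, limma adjusted p = 0.152). PDK2 read 9.92 and 10.05 without and 9.09 and 9.23 with embelin (log2 -0.82 ± 0.17 SE, limma adjusted p = 0.109). This was the lowest log2 fold change of the 32 genes. PDK1 minus PDK2 was higher by 3.61 (SE 0.23) with embelin.

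On the glycogen branch, the synthase GYS1 and the branching enzyme GBE1 were higher by more than 2-fold without passing the adjustment, and PGM1, which links glucose-6-phosphate to glycogen, gave a log2 fold change of 0.20. GYS1 read 11.53 and 11.46 in controls and 12.78 and 12.83 with embelin, a ratio of 2.48 (log2 1.31 ± 0.16 SE, limma adjusted p = 0.0511). GBE1 read 12.88 and 13.22 against 14.30 and 14.37, a ratio of 2.44 (log2 1.29 ± 0.20 SE, limma adjusted p = 0.0704). For each gene the groups did not overlap. Both genes were called in 3 of 16 alternatives: normexp background correction, a filter asking for all 4 arrays, and eBayes with trend and robust. With no filter on dim probes, the limma adjusted p was 0.413 for GYS1 and 0.448 for GBE1.

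**Figure D3:**
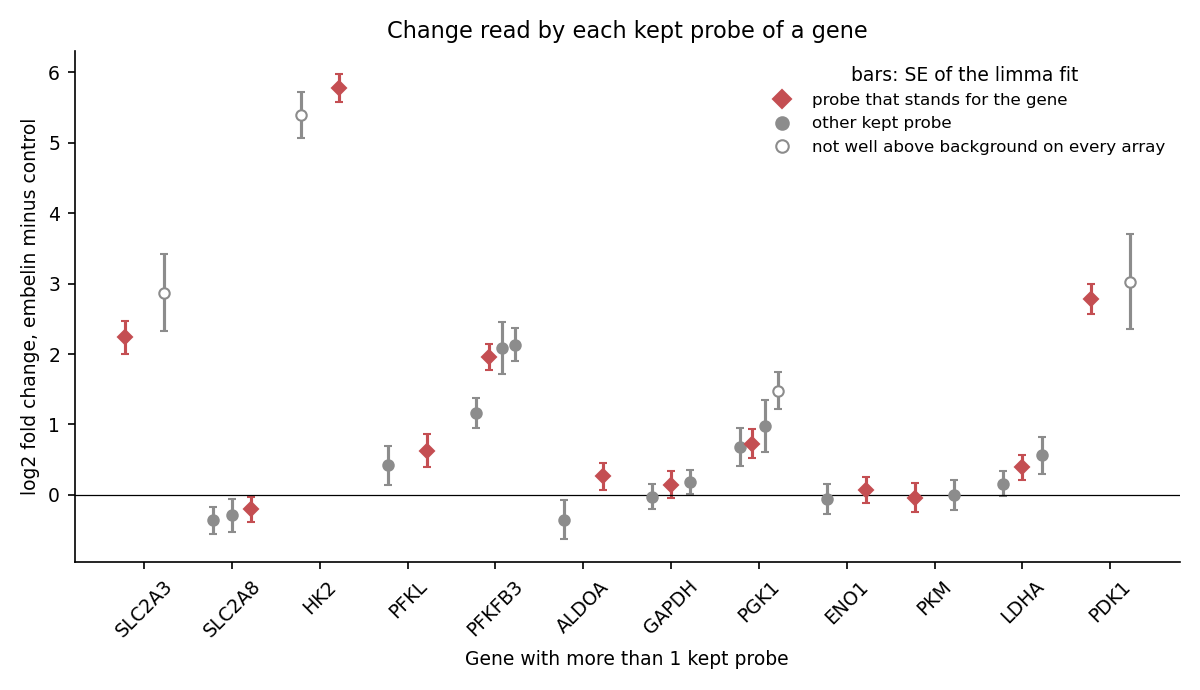
Log2 fold change (embelin minus control, y axis) read by each kept probe of the 12 genes with more than 1 (x axis), with the SE of the limma fit over probes as bars. Red diamonds are the probes that stand for a gene, and open symbols were not well above background on every array. The open symbols belong to HK2, PDK1, SLC2A3 and PGK1, and these probes were kept through the embelin group alone. The probes of HK2, PDK1, SLC2A3, PFKFB3 and PGK1 all lie above 0, and those of ALDOA (0.27 and -0.35) and ENO1 (0.07 and -0.06) lie on either side of it.

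Over the 21 pairs of isozymes with all values, the within-array difference did not overlap between the groups in 17. Of these, 12 hold a gene already called, so that most of the count restates those calls, and 5 do not (PFKL with PFKM, PFKP with PFKM, LDHA with LDHB, LDHA with LDHC, and PDK3 with PDK2). The pairs share genes, no share over other gene pairs was computed, and with 2 arrays a group an exact permutation test (two-sided) cannot give a p under 0.33, which each of the 17 gave. The pairs that overlapped were SLC2A6 with SLC2A8, PFKL with PFKP, ENO1 with ENO3, and LDHC with LDHB, none of which holds a called gene. Between the 2 called transporters, SLC2A3 minus SLC2A1 was higher by 0.40 (SE 0.07).

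The rises were found within each pair of arrays of like background. Embelin replicate 2 minus control replicate 1, with 66.4% and 66.7% of probes well above background, gave log2 differences of 5.79 for HK2, 3.73 for PFKFB4, 3.01 for ENO2, 2.70 for PDK1, 2.36 for SLC2A3, 1.89 for SLC2A1, 1.85 for PFKFB3 and 1.77 for ALDOC. Embelin replicate 1 minus control replicate 2 gave 5.76, 3.55, 2.49, 2.86, 2.11, 1.77, 2.06 and 1.5 for the same genes in that order. With this pairing as a block, the lowest limma adjusted p in the set was 0.182, and no gene on the array was called.

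The adjoining pathways held 4 called genes. Of 90 other genes of glucose metabolism, 75 were tested, and 4 were called higher and none lower, beside 1.25% and 0.561% of all genes. Their median log2 fold change was -0.01. The 4 were SLC2A14 and the glycogen genes PPP1R3B, PPP1R3C and PGM2L1. None of 11 other glycolytic enzymes and regulators, 10 genes of the pentose phosphate pathway, 14 of pyruvate entry to mitochondria and 17 of the citrate cycle was called, with medians of 0.08, -0.13, -0.04 and -0.05.

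PPP1R3B and PPP1R3C target protein phosphatase 1 to glycogen, where it activates glycogen synthase. PPP1R3B was not well above background on the control arrays (3.94 and 3.69) and read 6.51 and 6.82 with embelin, at least 3.42-fold higher (limma adjusted p = 0.026). It passed the filter through the embelin group alone, so that its call, counted above, rests on control values that were not well above background. PPP1R3C read 10.49 and 10.82 against 12.75 and 12.59 (log2 2.01 ± 0.20 SE, limma adjusted p = 0.0406). PGM2L1, a glucose-1,6-bisphosphate synthase, read 11.41 and 11.07 in controls against a mean of 13.03 ± 0.04 (SD, n = 2) with embelin (log2 1.79 ± 0.20 SE, limma adjusted p = 0.0459). GYG2, a glycogenin that primes glycogen, was singled out after its values were seen: it read 8.93 and 9.43 in controls and 7.10 and 7.42 with embelin, with no call (log2 -1.92 ± 0.26 SE, limma adjusted p = 0.057).

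In the other lists, the largest changes with groups apart were not called. PDK4, a further pyruvate dehydrogenase kinase, gave a log2 fold change of -1.26 (limma adjusted p = 0.0899), and PDP2, a phosphatase that opposes these kinases, gave -0.71. RBKS, which phosphorylates ribose, gave 0.70. FBP2, the muscle fructose-1,6-bisphosphatase, read 3.74 and 4.21 in controls, where it was not well above background, and 7.03 and 4.36 with embelin (limma adjusted p = 0.411). It was kept through the embelin group alone, and its higher mean rests on embelin replicate 1. PGP, a phosphatase of glycolytic by-products, gave -0.67. Of the citrate cycle list, IDH1 gave -0.34 and FH -0.30.

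**Figure D4:**
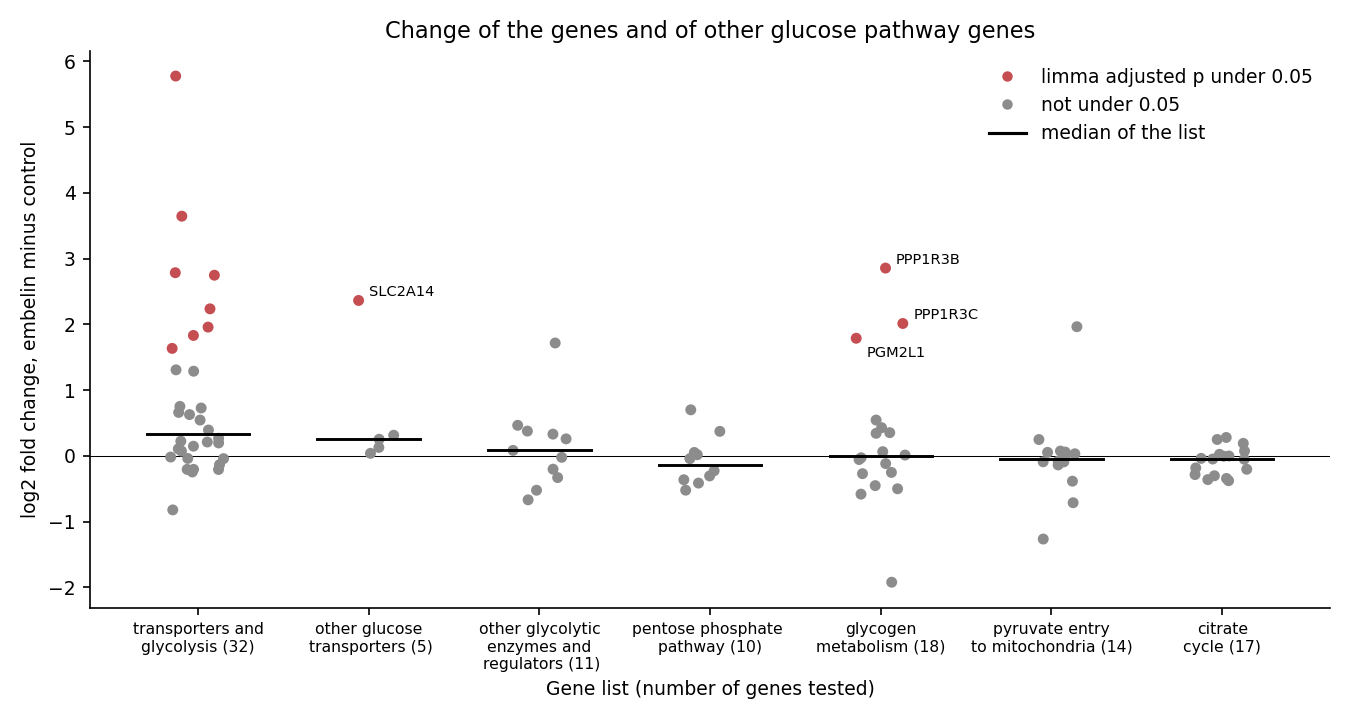
Log2 fold change (embelin minus control, y axis) of every gene tested, as 1 point a gene, in the set of 32 and in 6 lists of other glucose pathway genes (x axis), with the median of each list as a line. Red points were called at a limma adjusted p under 0.05: 8 in the set, 1 among the other transporters and 3 in glycogen metabolism.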

How the data were processed

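Total RNA of 4 A549 samples was measured on 1-colour arrays. The authors deposited the intensities of Agilent Feature Extraction (version 10.7.3.1 per the file headers), background-subtracted and detrended within each array but not normalized between arrays. A deposited value table repeats these intensities as means over the spots of each probe, and 100 to 122 of 50238 probes an array departed from such means by over 0.001 on the log2 scale.

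Intensities were scaled to equal 75th percentiles over the non-control spots, the shift named in the methods, floored at 1 and taken to log2. Spots marked as outliers were left out (918 probes affected). Probes were named by accession (28595), through another probe of the same file name (2341) or by the name in the files (19302), with no use of genome coordinates. A probe was kept where the scanner software put it well above background throughout 1 or both groups (26146 probes), and the one with the highest mean signal stood for its gene. Groups were compared in R 4.3.3 with limma 3.58.1 (lmFit, eBayes), with Benjamini-Hochberg adjustment over 17650 genes, after the fit was tested on simulated data. The median pooled SD was 0.21 in log2, and 2 arrays a group limit the precision.

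All members were named: those called, or changed 2-fold with groups apart, with every array's value. Of the other pathway genes, those called and the 2 with the largest change and groups apart in each list were named. A few results under these rules are not reported here, though the counts hold them. Members, lists and tests were chosen with earlier results of these data known. Alternatives were normexp background correction (offset 50), quantile normalization, the deposited table, no filter or a filter asking for all 4 arrays, Student's test as in the methods, eBayes with trend and robust settings, a block for the replicate number or (added after the values were seen) for the array background, the mean over probes, each probe alone, array position as a covariate, and leaving out each array.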

Additional observations from a re-analysis of the deposited data

How the results depend on the processing

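Direction was the same under every alternative for the 8 called genes and for GYS1 and GBE1, and these 10 genes stayed at 2-fold or more with an unadjusted p under 0.05 in each. Their adjusted calls were not as stable. Against 8 genes of the set called higher, 4 other pathway genes and 320 over the whole array, normexp gave 10, 5 and 700, the filter asking for all 4 arrays 10, 5 and 764, and eBayes with trend and robust 11, 5 and 1061. Quantile normalization gave 7, 2 and 239, the deposited values 5, 2 and 186, and the mean over probes 5, 3 and 218. Each probe on its own gave 7, 3 and 282, which are counts of probes out of 26146 and not of genes. The 7 probes belong to 6 genes of the set and include the dimmer HK2 probe. In that last setting, 17 probes of 11 genes of the set passed 2-fold with an unadjusted p under 0.05. No share over all probes was computed for this count, and some of the probes, such as the dimmer one of HK2, were kept through the embelin group alone. There were 0 calls of each kind with no filter on dim probes, with the methods' t-test after adjustment, with the replicate block, with the array background as a block and with array position as a covariate, where an unadjusted p under 0.05 was given by 2343, 2737, 3743, 2759 and 3053 genes. Leaving out each array in turn gave 0 to 0 calls of each kind, with 2131 to 3050 genes at an unadjusted p under 0.05 in limma. The lowest adjusted p among the set was 0.327 with no filter, 0.141 by the methods' t-test, 0.0669 with the replicate block, 0.182 with the array background as a block, 0.0898 with position, and 0.0557 to 0.172 with an array left out. By the methods' t-test without adjustment, 15 genes of the set were higher and 3 lower at a p under 0.05. Over the whole array, 2737 genes passed that threshold in either direction. Shares for higher and lower genes apart were not computed in this setting, so neither count can be set against the array. Isozyme pairs with groups apart numbered 19, with the 2 pairs that have 1 control array counted, and 20 with the mean over probes. With an array left out, 1 group holds 1 array and lies apart more readily, so such counts are not set beside these. The deviations of samples with the same replicate number correlated at 0.175 over 17298 genes with only 2 numbers, so that the numbers do not establish a pairing, and the block left fewer degrees of freedom. The cause of the other shifts was not tested.

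The direction changed for genes near 0, none of them called. The log2 fold change of SLC2A6 was 0.00 with quantile normalization, that of PFKFB2 0.03 with normexp (and -1.53 with the deposited values, which hold the outlier spot on control replicate 2), and that of ALDOA -0.04 with the mean over its probes. With an array left out, the range was -0.17 to 0.13 for SLC2A6, -0.03 to 0.24 for PGAM1, -0.01 to 0.15 for ENO1, -0.12 to 0.04 for ENO3, -0.17 to 0.09 for PKM and -0.34 to 0.07 for LDHC. Signal limits what could be seen for the 7 genes with no kept probe, and a group of 2 arrays limits every adjusted p.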
